A study of Sus scrofa domesticus with 16 samples.

Results

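MARK3, TAOK1, WWC2 and LIMD1 are regulators of the Hippo pathway, and each carried at least 1 differentially methylated site (DMS) in lung DNA of pigs fed an increased dose of cholecalciferol (vitamin D3). The 4 genes were chosen by name, because they stood in the deposited table of DMSs between the doses. They held 16 of its 2349 sites and were 4 of the 898 genes to which the table gives a symbol. Lung tissue was taken from 16 pigs (Sus scrofa domesticus), 8 on the increased dose and 8 on the standard dose. With the increased dose, grower feed had 3000 IU/kg and finisher feed 2500 IU/kg, and with the standard dose these feeds had 2000 and 1500 IU/kg. Each group had 4 males and 4 females. All animals received cholecalciferol, and the feeds were otherwise the same according to the study's methods. DNA methylation was read by reduced representation bisulfite sequencing (RRBS), which sequences fragments cut by the enzyme MspI at CCGG.

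The Hippo pathway is a kinase cascade that limits organ growth. In it the MST kinases activate the LATS kinases, which phosphorylate the co-activators YAP and TAZ and keep them out of the nucleus. In the lung, YAP and TAZ are known for their part in epithelial growth and in repair after injury. TAOK1 is a kinase that activates MST, WWC2 is a scaffold of the KIBRA family that promotes LATS activity, LIMD1 is an Ajuba-family LIM protein that binds and restrains LATS, and MARK3 is a polarity kinase whose fly relative Par-1 restrains Hippo signalling.

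A feature shared by most of these sites was their sequence. MARK3's 9 sites lay in 1 copy of a short repeat, of which 244 bases are shown because the copy served as the ruler for all other sites. TAOK1 and LIMD1 sites lay in other copies of the same repeat, the first WWC2 site lay just past the end of an alignment of it, and the second WWC2 site was not near one. All sequences are from the RefSeq copy of Sscrofa11.1, run 5′ to 3′, and have the CpG of each listed site in capitals.
MARK3 repeat copy (unplaced scaffold, 2036764-2037007, plus strand): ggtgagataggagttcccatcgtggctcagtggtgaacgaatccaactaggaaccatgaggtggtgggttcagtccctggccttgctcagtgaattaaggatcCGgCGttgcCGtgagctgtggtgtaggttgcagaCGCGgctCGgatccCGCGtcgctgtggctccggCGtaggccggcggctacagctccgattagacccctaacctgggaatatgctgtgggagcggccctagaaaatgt
TAOK1 (chr12:45606412-45606493, plus strand): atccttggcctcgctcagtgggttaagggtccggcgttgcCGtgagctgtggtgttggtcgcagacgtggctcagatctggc
LIMD1, 3 close sites (chr13:28764816-28764918, minus strand): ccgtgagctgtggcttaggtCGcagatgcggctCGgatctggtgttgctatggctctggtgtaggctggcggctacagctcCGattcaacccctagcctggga
LIMD1, first site (chr13:28734368-28734449, plus strand): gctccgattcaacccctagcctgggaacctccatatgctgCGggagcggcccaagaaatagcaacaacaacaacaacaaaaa
WWC2, first site (chr15:44704184-44704265, plus strand): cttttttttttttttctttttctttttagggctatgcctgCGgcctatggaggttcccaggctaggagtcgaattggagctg
WWC2, second site (chr15:44712956-44713037, plus strand): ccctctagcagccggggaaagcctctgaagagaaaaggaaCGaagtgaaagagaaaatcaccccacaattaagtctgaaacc
The TAOK1 CpG in capitals and the third MARK3 CpG in capitals are the same position of the repeat. The repeat was taken to be of the kind called a short interspersed element (SINE), a class of short repeats that is abundant in the pig genome. Its family was not determined here.

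Each value below is a difference in methylation level in percentage points, taken as the increased dose minus the standard dose, from the authors' deposited table. The table has 1 value per site for the whole comparison. Levels of single animals and read depths were not analysed here, so no spread between animals stands beside any value, the depth is unknown, and no overlap between the groups can be given. Every listed site is past the limits of 25 points and a q-value of 0.05. The highest row number of a listed site is 667810, so at least that many sites were tested and at most 0.352% of them were listed. If reads and not animals were the unit of the test behind the q-values, which is not stated, these are too small. Because the genes were chosen from that list, their sizes, q-values and directions are given as a description and were not tested.

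With the increased dose, 12 of the 16 sites were hypermethylated and 4 were hypomethylated. Gains were 59.3% of all listed sites, and the members' larger share rests on MARK3. Without MARK3, 3 of the 7 remaining sites were gains. By gene, MARK3 held only gains and TAOK1 only a loss, while LIMD1 had 2 gains and 2 losses and WWC2 had 1 of each. The mean of LIMD1 was 3.31 points and its median -1.42 points, so its direction turned with the summary, and the mean of WWC2 was -5.59 points. Over all genes with a symbol, 59.9% gained on average. The median size was 31.9 points over the 16 sites, against 30.4 points over all listed sites. The smallest was 26.6 points at a WWC2 site, the member nearest to the limit. Over the whole table sizes reached 66.3 points, and sites below the limit were not analysed here.

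MARK3 phosphorylates microtubule-associated proteins and other substrates that then bind proteins of the 14-3-3 family. Its gene model spans 1942556-2055058 on the plus strand of an unplaced scaffold of 3843259 bp, with 14 transcripts. The sites lay 94.3 kb from the gene start, 83.8% of the way along the gene, in intron 14 of the 18 introns of the longest transcript. No transcript had a site in an exon, and the nearest exon was 1479 to 1546 bp away. The intron is 8.69 kb long and makes up 7.73% of the gene.

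All 9 MARK3 sites were hypermethylated with the increased dose. The first 3, at positions 2036867, 2036870 and 2036876, differed by 33.3, 34.5 and 32.9 points. The next 3, at 2036901, 2036903 and 2036908, differed by 28.9, 35.6 and 30.2 points. The last 3, at 2036915, 2036917 and 2036934, differed by 29.6, 32.2 and 31.7 points. The values were close to each other, with a mean of 32.1 points and an SD over sites of 2.23. That SD describes neighbouring CpGs on shared fragments, not animals. Their q-values ran from 3.56e-24 to 2.35e-15, and in size they ranked from 590 to 1414 of the 2349 sites.

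**Figure D1:**
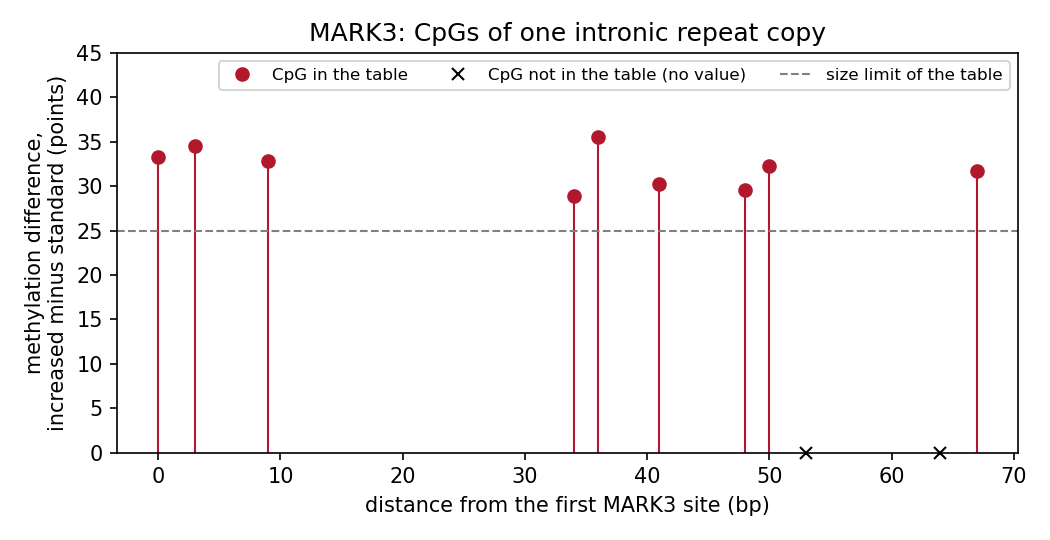
Methylation difference at each CpG of the MARK3 cluster (points, increased minus standard dose) by distance from the first site (bp). The 9 listed CpGs stand between 28.9 and 35.6 points, and crosses on the axis mark the 2 CpGs at 53 and 64 bp that the table does not list and that have no value.

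The sites fill 68 bp. The reference has 11 CpGs there, and the row numbers step by 11 tested sites over the same span, so by this reading every CpG of the span was tested, and 9 were listed. The 2 CpGs without a listed difference lie 53 and 64 bp after the first site, next to each other and before the last listed site. The second of them is in a CCGG, the recognition site of MspI, and so is the first listed site. These 2 CCGGs bound a fragment of 64 bp that holds 8 of the 9 listed sites. The last listed site, at 2036934, lies outside it, between CCGGs only 10 bp apart. Which molecules gave its value is not known.

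Sites up to 100 bp apart were joined into stretches, which gave 2057 stretches in the whole table. Of these, 224 held more than 1 site, and MARK3's was the only stretch of 9. The next had 6 sites, with 1 gain and 5 losses, on the same scaffold at 2619106-2619166. A stretch of 5 gains lay in PFKFB4 on chromosome 13. Both also lay wholly in the repeat. The other 14 listed sites of MARK3's scaffold went mostly the opposite way, with 3 gains and 11 losses. Within 1 Mb of the MARK3 sites there were 12 other sites, 2 gains and 10 losses, and the nearest were 369 kb after and 780 kb before them. Both counts include the 6 close sites at 2619106-2619166, which are 1 stretch with 1 gain and 5 losses.

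TAOK1 phosphorylates and activates the MST kinases and also acts on microtubules. Its model covers 45597067-45750117 of chromosome 12, plus strand, with 20 exons. At position 45606452, in intron 1, 9.39 kb after the gene start, methylation was lower by 37.2 points with the increased dose (difference of -37.23 points, q-value 3.52e-38). This was the only listed site of the gene, and it ranked 460th by size. Row numbers give only a loose upper bound of 1157 tested sites, counted between the listed sites at 45591445 and 47925592. That span reaches far beyond the gene. The nearest other listed site lay 15007 bp before the TAOK1 site at 45591445, within the uncharacterised RefSeq gene LOC102161554, and differed by -30.34 points. It was the only other listed site within 100 kb of any of the 4 genes' sites.

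LIMD1 is a scaffold that, besides its hold on LATS, takes part in microRNA silencing. Its model covers 28730192-28811584 of chromosome 13, plus strand, with 8 exons, and all 4 sites were in intron 1. The site at 28734408, 4.22 kb after the gene start, differed by 26.98 points (q-value 2.24e-06, the largest of the 16). The other 3 sites lay 34.6 to 34.7 kb after the gene start, at 28764836, 28764884 and 28764897. They differed by -30.12, 46.18 and -29.81 points, with q-values of 6.00e-29, 3.69e-58 and 5.65e-30.

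The middle site of these 3 was thus hypermethylated with the increased dose, while its neighbours 48 bp before and 13 bp after it were hypomethylated. The middle value was also the largest of the 16, ranking 133rd of the table. All 3 lay between the same pair of CCGGs, 253 bp apart, in 1 copy of the repeat. The row numbers left 1 tested but unlisted CpG in each of the 2 gaps. Among all neighbouring listed sites up to 100 bp apart, 41 of 292 pairs (14.0%) had opposite directions. LIMD1 had 2 of 2 such pairs, and MARK3 had 0 of 8.

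WWC2 is a scaffold with WW domains that brings LATS kinases and their activators together. Its model covers 44615731-44802717 of chromosome 15, plus strand, with 25 exons. Both of its sites were in intron 1, at 88.5 and 97.3 kb from the gene start, and 8772 bp apart. The first, at 44704224, differed by 26.65 points (q-value 1.74e-12), and the second, at 44712996, by -37.82 points (q-value 1.07e-12). The directions were opposite here too, with 9 tested sites in the span by row numbers. The second site was 1259 bp before the next exon, and no other listed site was within 1 Mb.

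**Figure D2:**
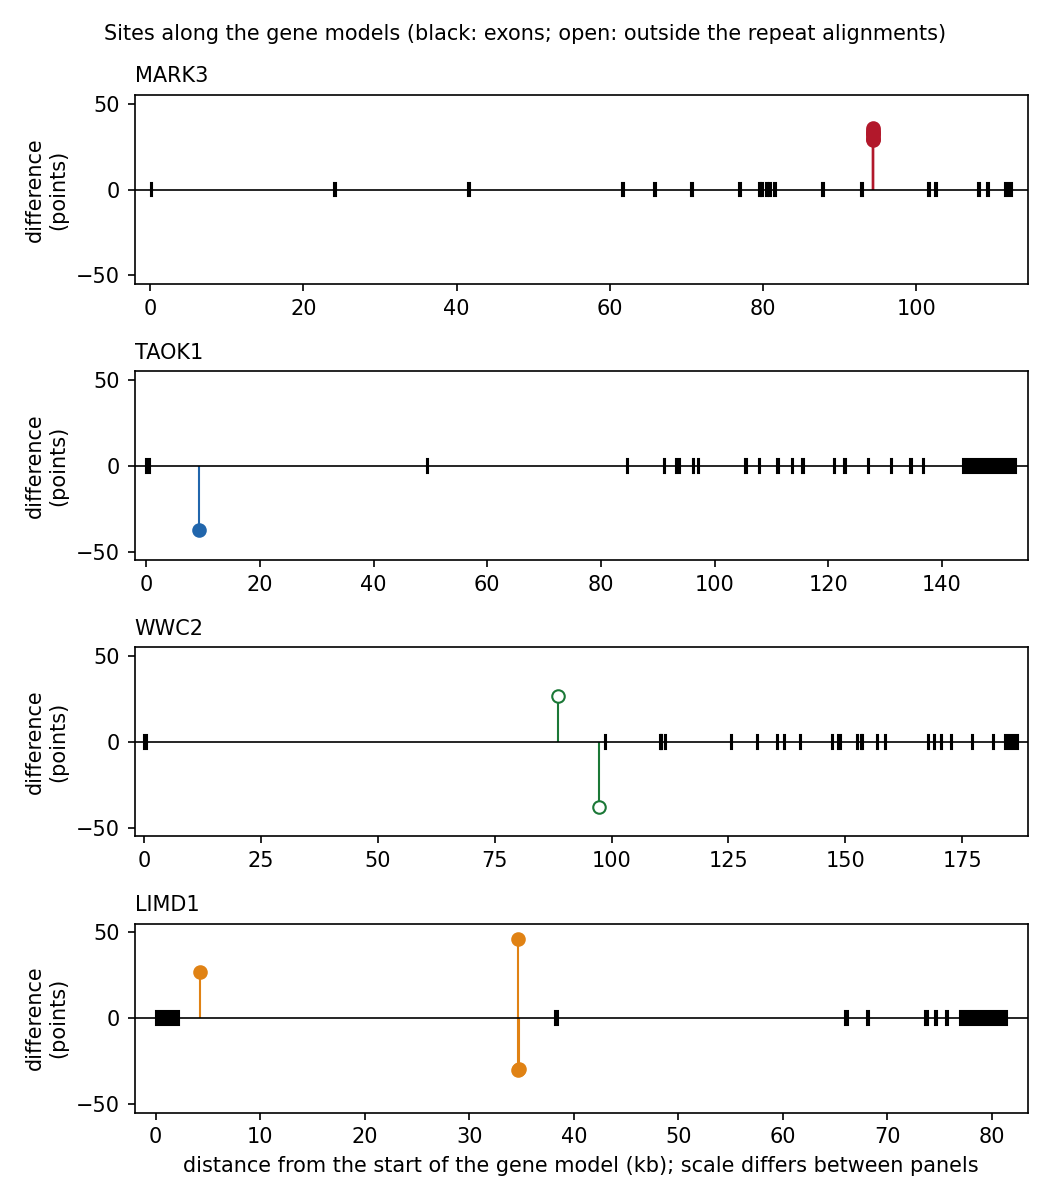
Listed sites of MARK3, TAOK1, WWC2 and LIMD1 along their RefSeq gene models (horizontal axis: distance from the gene start in kb, vertical axis: difference in points, increased minus standard dose, black boxes: exons, open circles: sites outside the repeat alignments). The 9 MARK3 sites coincide at this scale, WWC2 and LIMD1 show both directions, and every site of TAOK1, WWC2 and LIMD1 is in the first intron.

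No site of the 4 genes was in an exon. All 7 sites of the 3 genes on chromosomes were in intron 1, which holds 37.1% of the CpGs of TAOK1, 48.1% of those of WWC2 and 43.8% of those of LIMD1. Joining sites up to 100 bp apart left 6 stretches over the 4 genes, of which 3 had a positive mean. The site nearest to a gene start was the first of LIMD1, at 4.22 kb.

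The repeat copy of MARK3 gave 903249 alignments in the assembly, which cover 7.67% of its bases and 21.3% of its CpGs. Of the 16 sites, 14 (87.5%) lay in such an alignment, in 3 of the 4 genes, against 54.4% of the other 2259 listed sites that could be placed. The copy in TAOK1 was 79.4% identical to that of MARK3 over 243 bp, and those in LIMD1 were 86.6% and 84.3% identical over 239 and 236 bp. Among reference CpGs within 150 bp of a CCGG, where all placed listed sites lay, the share was 27.6%. The share among the tested CpGs is not known, so no enrichment of listed sites in the repeat is read from these values. The member share is weighted by MARK3, whose 9 sites share 1 copy. That copy was the one aligned to the assembly, so the place of MARK3's sites and stretch in the repeat was fixed in advance. Of the other genes, TAOK1 had 1 of 1 site in the repeat, LIMD1 4 of 4 and WWC2 0 of 2. Counted by stretch, 4 of 6 member stretches (66.7%) lay in the repeat, against 51.4% of the 1984 other stretches. Of these 4, 1 is MARK3's, inside by construction, so no excess of the members is read from this count. Within the gene models themselves the repeat held 38.2% of the CpGs of MARK3, 59.5% of those of TAOK1, 24.7% of those of WWC2 and 30.3% of those of LIMD1.

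**Figure D3:**
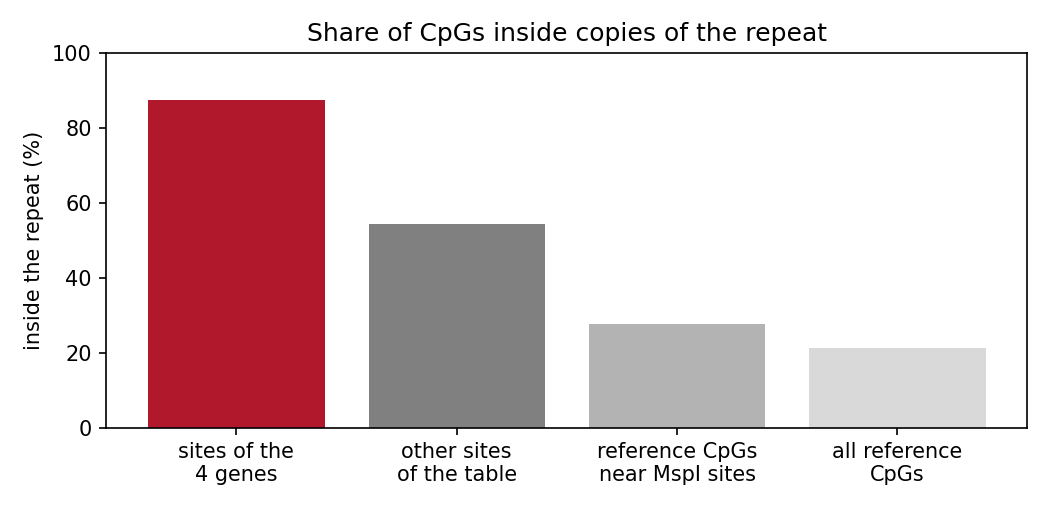
Share of CpGs inside alignments of the MARK3 repeat copy (percent). The bars stand at 87.5% for the 16 sites of the 4 genes, 54.4% for the other listed sites, 27.6% for reference CpGs within 150 bp of an MspI site and 21.3% for all reference CpGs. In the first bar, the 9 MARK3 sites are inside by construction. The share among the tested CpGs is not known.

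The WWC2 site at 44704224 was 13 bp beyond the end of an alignment of 203 bp, in sequence that the assembly soft-masks as repetitive. The alignment's end is not the end of the repeat there, since 44 bp of the printed WWC2 window, the site included, aligned on the opposite strand to the printed window of the first LIMD1 site with 86.4% identity. With alignments widened by 20 bp at each end, 15 of the 16 sites (93.8%) were counted in the repeat, against 56.3% of the other listed sites. By stretch, 5 of 6 member stretches (83.3%) were counted, against 53.5% of the other stretches. MARK3's sites and stretch are inside by construction here too. The margin of 20 bp was chosen after the data were seen and exceeds 13 bp, so the WWC2 site at 44704224 was bound to be counted. Nothing is therefore read from these widened shares. The WWC2 site at 44712996 was 870 bp from the nearest alignment and was the only one of the 16 outside soft-masked sequence. The other 15 (93.8%) were soft-masked, against 63.3% of the other listed sites. They include the 9 MARK3 sites, which share the same repeat copy, so no excess of the members is read from this share. The surroundings of the members had a median of 15 CpGs in the window around a site, which took in 100 bp on each side, against 9 around the other listed sites. That difference came from MARK3, whose windows overlap, and without MARK3 the median over the 7 remaining sites was 9. CpG islands are stretches rich in G, C and CpG. Of the 16 sites, 15 lay in islands of at least 200 bp, against 70.7% of the other sites, and 0 lay in islands of at least 500 bp under a stricter definition, against 17.7%. The 15 include the 9 MARK3 sites, which lie side by side. With close sites joined, 5 of 6 lay in islands of at least 200 bp, and the matching share of other stretches is not given.

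Counting bases from the start of the MARK3 copy gave each site in the repeat a position, so that equivalent CpGs of different genes could be set side by side. Position 113 is a CpG in both MARK3 and TAOK1. It differed by 32.87 points in MARK3 (2036876) and by -37.23 points in TAOK1. Position 145 is a listed CpG of MARK3 (2036908) and of LIMD1 (28764884). Both were gains, of 30.23 and 46.18 points. The other LIMD1 sites fell at positions 132, 193 and 223, of which only position 193 is a CpG in the MARK3 copy, and none is a listed site of MARK3.

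Other listed sites showed both directions at every one of these positions. At position 113 there were 40 gains and 27 losses among the other sites. At position 145 there were 39 gains and 27 losses, and at position 132 there were 26 gains and 8 losses. LIMD1's loss at position 132 was thus in the minority direction. At positions 193 and 223 the other sites had 55 gains with 36 losses and 35 gains with 24 losses, and LIMD1 lost at 193 and gained at 223.

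**Figure D4:**
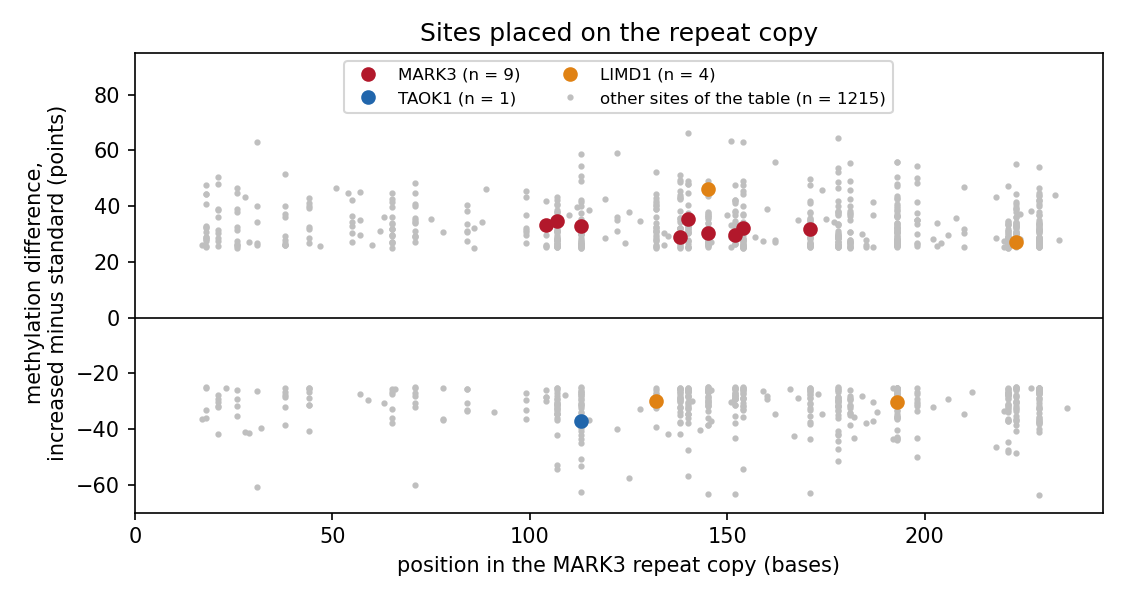
Methylation difference (points, increased minus standard dose) of listed sites by their position in the 244-base MARK3 repeat copy, for MARK3 (9 sites), LIMD1 (4) and TAOK1 (1) in colour and 1215 other sites in grey. MARK3 sites are all above 0, the TAOK1 site is below 0 at position 113 where a MARK3 site is above 0, and the empty band around 0 is the size limit of 25 points.

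How alike these copies are to others bears on where reads can align. The 168 bp around the MARK3 sites had 0 copies at 95% identity over at least 90% of the length, 45487 copies at 90% identity, and a best match of 94.4%. The window around the first LIMD1 site, with 75 bases on each side, had 2688 copies at 95% identity, 21 of them at 98% or more. It was the only member window with a copy at 95%. The windows of the other LIMD1 sites had 2005 to 3527 copies at 90% identity and that of TAOK1 had 457, while the WWC2 windows had 0. These identities are between unconverted reference sequences, whereas RRBS reads are bisulfite-converted. The MARK3 window of 168 bp is also longer than the MspI fragment of 64 bp that holds most MARK3 sites. The counts therefore do not show how firmly reads can be placed. The part of read placement among copies in these differences was not tested.

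The wider pathway was described with a list of 98 Hippo genes, of which 93 had a RefSeq gene and 12 (12.9% of the 93) had a listed site. Over all protein-coding RefSeq genes, 906 of 19623 (4.62%) had one in the gene body. The median gene length was 59.5 kb in the list and 20.5 kb over the other protein-coding genes, and the part of length was not tested. The whole list was chosen with earlier results of these data known, and 4 of the 12 were chosen for being listed. Nothing is therefore read from the larger share. By gene mean, 6 of the 12 were positive and 6 negative, beside 538 of 898 positive over all genes with a symbol. The median of the gene means was 0.267 points over the 12, a midpoint between LIMD1 and BTRC, which both have sites in each direction. It was 8.03 points with sites of at least 30 points and 11.6 points with q-values under 1e-10, and over the 898 genes it was 25.8 points, so nothing is read from its distance to that value. The list's 8 genes other than the 4 above held 9 sites, 5 gains and 4 losses, and 4 of these sites lay in the repeat.

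The largest gain of the list was at RHOA, a small GTPase that drives actin tension and YAP activity, which differed by 53.04 points on chromosome 13 (31973012). CIT, which encodes citron kinase, differed by 43.24 points on chromosome 14 (33123686), less than the largest LIMD1 site. The CIT site was at repeat position 107, where MARK3 (2036870) differed by 34.51 points. Smaller gains were at CSNK1D, a casein kinase that marks YAP for degradation (35.07 points, chromosome 12, 787446), and LLGL2, a cell polarity protein (26.07 points, chromosome 12, 5823770).

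The losses were at WWC1, the KIBRA scaffold related to WWC2 (-35.37 points, chromosome 16, 55423838), MOB3B, a relative of the LATS cofactor MOB1 (-28.53 points, chromosome 10, 38677773), and STRN, a subunit of the phosphatase complex STRIPAK that counters MST (-25.73 points, chromosome 3, 103280596). The STRN site was at repeat position 193, where a LIMD1 site also lost. BTRC, the ubiquitin ligase subunit that recognises phosphorylated YAP, had both directions within 21 bp of chromosome 14. It differed by 25.39 points at 112425638 (repeat position 132) and by -30.94 points at 112425659 (repeat position 113). Against the same positions in the 4 genes, BTRC went the opposite way to LIMD1 at position 132, and the same way as TAOK1 but the opposite way to MARK3 at position 113.

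**Figure D5:**
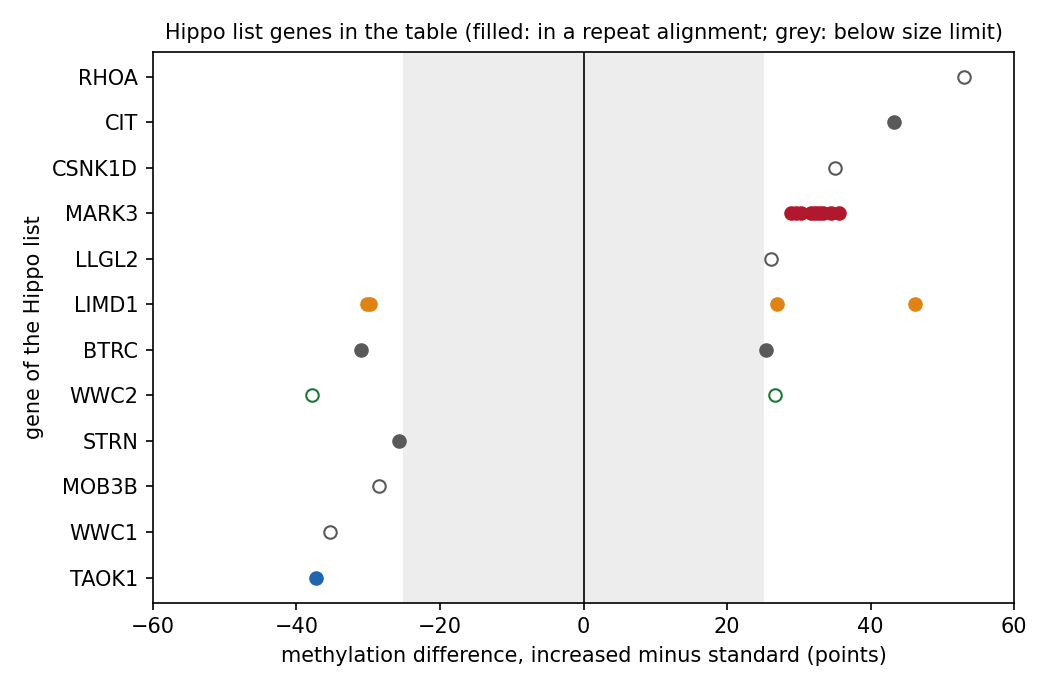
Methylation difference (points, increased minus standard dose, horizontal axis) at each of the 25 listed sites of the 12 Hippo list genes, ordered by gene mean (filled: site in a repeat alignment, open: outside, grey band: sizes below the table's limit of 25 points). The genes run from TAOK1 at -37.2 to RHOA at 53.0 points, and LIMD1, WWC2 and BTRC have sites on both sides of 0.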

How the data were processed

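Per the study's methods, reads were trimmed with FlexBar and mapped with BSMAP to Sscrofa11.1, CpGs covered by more than 5 reads were kept, and the groups were compared with methylKit 1.26.0. Groups were taken from the sample labels. Per site, the deposited table gives the p-value and the q-value of methylKit as the authors computed them. The methylation difference, a signed score in percentage points, was computed by the authors with methylKit before deposit. Its sign was read from the way the study uses hypermethylated and hypomethylated for the increased dose. The sources used here do not say whether animals or reads were the unit of the authors' test.

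No comparison was refitted: these columns are the authors' own. The members, the Hippo list and the naming rule (all member sites, all list genes with a site, and nearest sites within 100 kb) were chosen with earlier results of these data known. PFKFB4 was named after its values were seen. All 2275 positions on chromosomes or the MARK3 scaffold are CpG cytosines in RefSeq Sscrofa11.1, from which gene models and sequences come. The MARK3 scaffold was the 1 unplaced record long enough for its 23 listed sites, all of which are CpGs there. The repeat copy was cut from soft-masked sequence up to the first run of 8 A and aligned with BLAST 2.17.0 (E-value 1e-10). The copies of each window were likewise found by BLAST. Islands of at least 200 bp needed GC above 0.5 and an observed to expected CpG ratio above 0.6, and those of at least 500 bp needed 0.55 and 0.65. The functions were tested on simulated data. Python 3.11.15 was used. Alternatives are listed in the closing section.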

Additional observations from a re-analysis of the deposited data

How the results depend on the processing

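Of 19 alternatives run, 11 left the value within its limits and 8 moved it. The 12 gains of 16 sites became 2 of 4 sites at a size of at least 35 points, 3 of 7 without MARK3, and 3 of 6 with sites no more than 100 bp apart joined. The 15 sites in CpG islands became 0 with islands of at least 500 bp and 5 of 6 with close sites joined. The 0 copies of the MARK3 window became 45487 at 90% identity, and the 1 other site within 100 kb became 0 within 10 kb and 17 within 1 Mb. The count of sites in the repeat was 14 with alignments of at least 100 bp, 13 with at least 80% identity and 15 with alignments widened by 20 bp. Each count includes the 9 MARK3 sites, which are in the repeat by construction. The alternatives without MARK3, in the repeat only and with other alignments were chosen after seeing the data. Leaving out single animals and another coverage minimum were not run, since the table used here has neither. No paired analysis was possible because the table has 1 value per site for the whole comparison. The depth behind each difference is unknown.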

Other observations

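The repeat ran through the whole table. Of 1243 placed sites in its alignments, 61.1% were gains, against 57.8% of the 1032 placed sites outside it, and the difference was not tested. Among the other listed sites, with or without a gene symbol, 1215 had a position on the MARK3 copy and 782 of these fell on one of its 17 CpGs, each of which had at least 1 other listed site. The most frequent positions were 193 with 92 listed sites, 229 with 88 and 113 with 69, and the first and last of these 3 include sites of LIMD1, MARK3 and TAOK1. Alignments of the repeat copy at 80% identity or more numbered 396803 in the assembly.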
